A study of Arabidopsis thaliana with 18 samples.

Results

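Cells divide only while a leaf is young, and in Arabidopsis thaliana the arrest of division spreads through the blade as it expands. Entry into mitosis needs A- and B-type cyclins bound to cyclin-dependent kinases, among them the plant-specific CDKB kinases. Aurora kinases, kinesins and their partners then build the spindle, the spindle checkpoint and the anaphase-promoting complex (APC/C, a ubiquitin ligase) time the separation of chromosomes, and a plant-specific array, the phragmoplast, lays down the new cell wall. Most of these genes are transcribed in a pulse at the transition from G2 to mitosis, which MYB3R transcription factors control through a short promoter motif, the mitosis-specific activator (MSA) element. TCP2, TCP3, TCP4 and TCP10 are targets of miR319 and belong to the CIN class of TCP transcription factors, which are known to restrain growth at the leaf margin.

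The 44 mitosis and cytokinesis genes described here were taken from a table of 33602 loci by a list of locus identifiers that was drawn up with earlier results of these data known: 9 B-type cyclins, 5 A-type cyclins, 5 genes of CDKB kinases and the CDK subunit CKS2, 8 genes of spindle, aurora kinases and mitotic chromatin, 6 of the checkpoint and of APC/C regulators, 9 of the phragmoplast and cytokinesis, and the MYB3R genes MYB3R4 and MYB3R1. All 44 passed the filter on low counts. RNA was sequenced from the margin and the center of leaf 5 in wild type Col-0, in the double mutant tcp2tcp4 and in the quadruple mutant tcp2tcp3tcp4tcp10, with 3 libraries in each of the 6 groups. Each library came from 15 to 20 plants, which spent 5 days on plates before moving to soil, at 23 °C in days of 16 h light and 8 h darkness. Leaf 5 was collected when leaf 7 emerged, at Zeitgeber time 6, and cut into its 2 pieces on a cold surface. To bring the lines to a like stage at harvest, plates of each line were moved to the greenhouse with an offset of 2 days, beginning with the quadruple mutant, and the age of the plants cannot be told apart from their genotype. In pieces of tissue, fewer dividing cells and less RNA of these genes per cell cannot be told apart either.

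The libraries held 5932877 to 12018414 reads counted in genes. TCP2 was at 11.3% to 17.01% of its Col-0 level in both mutants and TCP4 at 18.7% to 24.8%, while TCP10 was at 103% to 115% in the double mutant and at 8.11% to 11.1% in the quadruple mutant, so these genes moved with their labels. TCP3 was low throughout, at 1.98 to 3.03 CPM (read counts relative to the library total, with the TMM scaling of edgeR) in Col-0 and the double mutant and at 0.402 to 0.432 in the quadruple mutant. The labels name no alleles, and transcript of each mutated gene remained. Reads aligned to several places were 16.0% of replicate 3 of the double mutant margin and 8.60% of replicate 1 of the Col-0 margin, against 3.71% to 4.97% elsewhere. How the counting treated strand is not given in the sources used here. In the RefSeq annotation of TAIR10.1, which may differ from that used for counting, 19 of the 44 genes overlap another gene. Counts of those that overlap a counted locus are uncertain to that extent. The loci that overlap POK2 and RUK are not among the loci counted. Whether libraries of a group came from separate growths is not stated, so p-values measure the spread between these libraries. Libraries of 1 number from the margin and the center of a genotype varied together and are called a leaf pool. The labels do not state that they came from the same leaves, and what they share was not tested.

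Summed over the 44 genes, the level was lowest in the Col-0 margin and highest in the margin of the quadruple mutant. The sum was 498, 527 and 537 CPM in the Col-0 margin and 805, 806 and 915 CPM in the Col-0 center. In the double mutant it was 863, 792 and 696 CPM in the margin and 929, 724 and 678 CPM in the center, ranges that overlap. The quadruple mutant had 1358, 1445 and 1559 CPM in the margin and 756, 697 and 875 CPM in the center. The centers of the 3 genotypes therefore overlapped, and the margins were ordered Col-0, double mutant, quadruple mutant without overlap. Within a leaf pool, the margin held 0.619, 0.654 and 0.586 times the sum of the center in Col-0, 0.929, 1.09 and 1.03 times in the double mutant, and 1.80, 2.07 and 1.78 times in the quadruple mutant. The mean was lowest in the Col-0 margin for 42 of the 44 genes and highest in the quadruple mutant margin for 42. All 3 Col-0 margin libraries lay below the other 15 libraries for 28 of the 44 genes, against 4.65% of all loci tested, and all 3 quadruple mutant margin libraries lay above the other 15 for 40, against 6.82%.

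**Figure D1:**
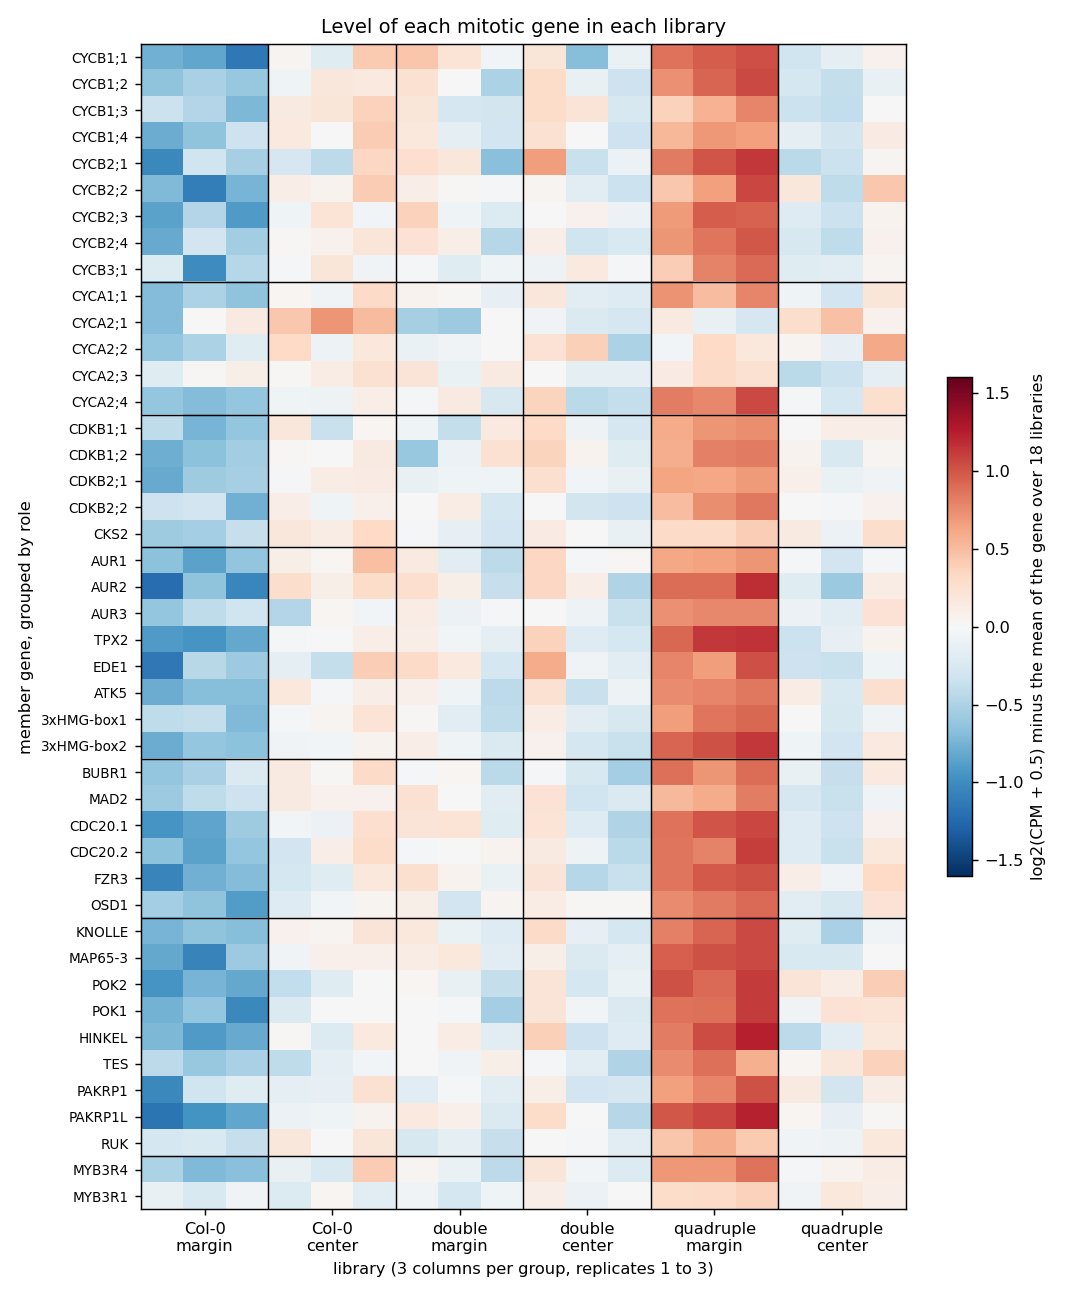
Level of each of the 44 genes in each of the 18 libraries, as log2(CPM + 0.5) minus the mean of the gene, with genes ordered by role and libraries by group. The 3 Col-0 margin columns are blue and the 3 quadruple mutant margin columns red in nearly every row, and the 4 groups between them are pale.

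In Col-0, mitotic genes were lower in the margin than at the center of the leaf. Of the 44 genes, 35 were lower, 0 were higher and 9 did not pass the test, where 11.4% of all 17763 loci tested passed in either direction and 6.13% were lower. The median log2 fold change over the 44 genes was -0.71, and over all loci it was 0.00. Only 3 of the 35 changed at least 2-fold, AUR2 (-1.21 ± 0.23, adjusted p = 0.00124), CYCB2;2 (-1.13 ± 0.24, adjusted p = 0.00283) and CYCB1;1 (-1.10 ± 0.22, adjusted p = 0.00209). Values after ± are standard errors, and p-values are from the quasi-likelihood test of edgeR with Benjamini-Hochberg adjustment over all loci. In all 3 leaf pools, 42 of the 44 genes were lower in the margin, and the share of all loci that were so was not computed.

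In the double mutant, no difference between margin and center was detected for any of the 44 genes, where 7.51% of all loci passed. The count was 0 with edgeR and 0 with DESeq2, 1 gene had an unadjusted p under 0.05, and the smallest adjusted p was 0.213, for CYCB1;1. The median log2 fold change was 0.03. With the leaf pool as a block, CDC20.1 alone passed, 0.23 higher in the margin (adjusted p = 0.0454), where 3041 of all loci passed against 1334 without the block. Without replicate 1 of the double mutant center, 1 gene passed, FZR3 (0.50, adjusted p = 0.0436).

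In the quadruple mutant, the direction was the opposite of that in Col-0: 41 of the 44 genes were higher in the margin and 0 were lower, where 25.6% of all loci passed in either direction and 12.1% were higher. The median was 0.87, and 15 of the 41 changed at least 2-fold. The 3 that did not pass were CKS2, which rose with the leaf pool as a block (0.23, adjusted p = 0.00694), CYCA2;1 and CYCA2;2. In every one of the 3 leaf pools, 42 of the 44 genes were higher in the margin, again with no share over all loci computed.

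**Figure D2:**
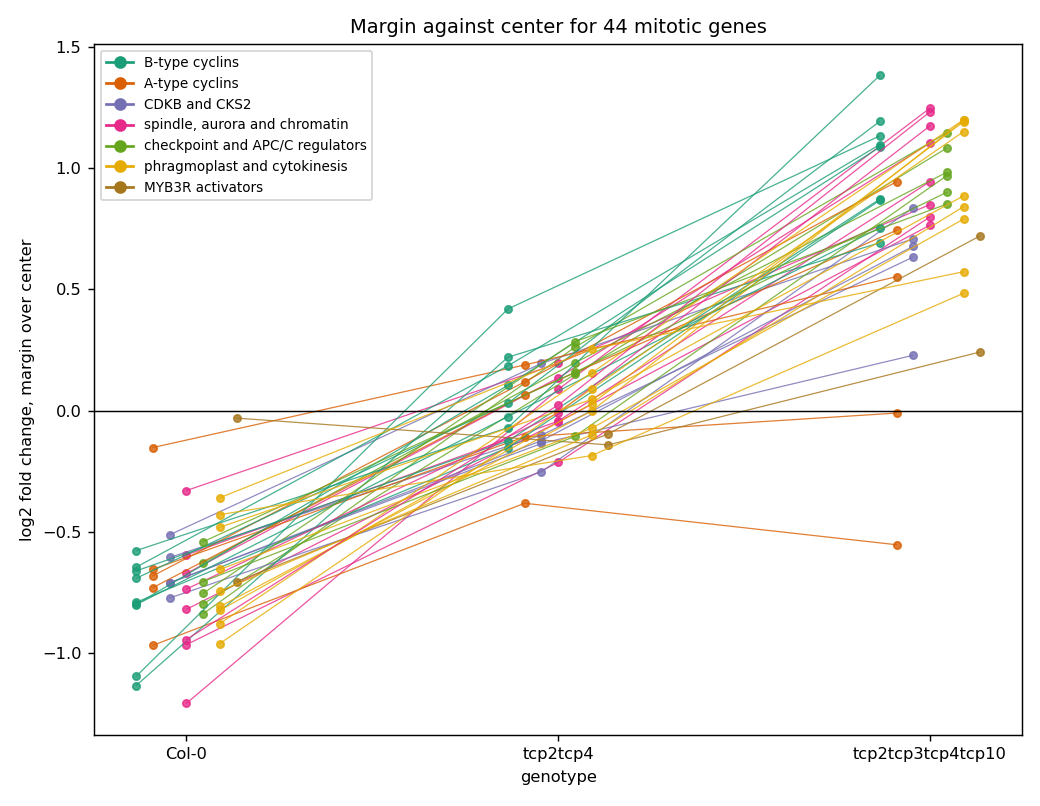
Log2 fold change of margin over center for each of the 44 genes in the 3 genotypes, with 1 line per gene, colored by role and shifted sideways by role. The lines run from below 0 in Col-0 (median -0.71), through values on either side of 0 in the double mutant (median 0.03), to above 0 in the quadruple mutant for 42 of the 44 genes (median 0.87).

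Between genotypes, most of the 44 genes differed in the margin and few in the center. In the margin, 30 of the 44 genes were higher in the double mutant than in Col-0, 0 were lower, the median was 0.60, and 14.1% of all loci passed in either direction and 6.33% were higher. The quadruple mutant margin exceeded the Col-0 margin for 43 genes, the exception being CYCA2;1, with a median of 1.46, 38 genes at least 2-fold, and 43.9% of all loci passing, 22.1% higher. These 2 comparisons share the Col-0 margin libraries. Against the double mutant, 41 genes were higher in the margin of the quadruple mutant, with a median of 0.87, and 25.8% of all loci passed, 12.2% higher. The count for the double mutant against Col-0 was 18 without replicate 1 of the double mutant margin.

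In the center, 0 of the 44 genes passed between the double mutant and Col-0, where 6.15% of all loci did (DESeq2 called 0, 5 had an unadjusted p under 0.05, and the median was -0.13). Between the quadruple and the double mutant 0 passed, where 7.93% of all loci did (DESeq2 0, 2 with an unadjusted p under 0.05, median 0.00), and 2 passed without replicate 1 of the double mutant center. Between the quadruple mutant and Col-0, 5 passed, where 31.1% of all loci did, 15.2% higher and 15.8% lower: the kinesin genes POK2 (0.43 ± 0.12, adjusted p = 0.00934) and TES (0.40 ± 0.14, adjusted p = 0.0364) were higher, and CYCB1;3 (-0.52 ± 0.18, adjusted p = 0.0302), CYCA2;3 (-0.45 ± 0.099, adjusted p = 0.00154) and KNOLLE (-0.37 ± 0.13, adjusted p = 0.035) were lower. That share, 5 of 44, lay below the share over all loci. The count was 2 without replicate 1 of the Col-0 center or without replicate 2 of the quadruple mutant center, and 3 without replicate 3 of the Col-0 center. CYCA2;3 was the 1 gene of the 5 called under each of 12 other settings.

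The difference between genotypes was itself tested as an interaction, the log2 fold change of margin over center in 1 genotype minus that in another. Between the quadruple mutant and Col-0, 41 of the 44 genes had a positive interaction that passed and 0 a negative one, where 17.2% of all loci passed, 7.96% with a positive value. The median was 1.61, 37 of the 41 were at least 2-fold, and the count was 41 whichever library was left out. CYCA2;1, CYCA2;2 and MYB3R1 did not pass. Between the quadruple and the double mutant 26 passed, all positive, with a median of 0.85, where 2.9% of all loci passed, 1.43% with a positive value. A block for leaf pool gave 39, and over all loci it called 2008, of which 817 had a positive value, against 515 without it. Unblocked, the count was 14 without replicate 2 of the quadruple mutant center. It was 15 without replicate 3 of the quadruple mutant margin and 15 without replicate 1 of the double mutant center.

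Between the double mutant and Col-0 the interaction passed for 7 genes, all positive, where 0.439% of all loci passed and 0.332% had a positive value. The median over the 44 genes was 0.72. With the leaf pool as a block it passed for 28 genes. Over all loci the block called 1347, of which 708 had a positive value, against 78 loci without it. With the block all 28 were positive, among them KNOLLE (0.79, adjusted p = 8.99e-07), AUR2 (1.21, adjusted p = 1.16e-05) and CDKB2;1 (0.58, adjusted p = 0.00112). The 7 called without it were CYCB1;1 (1.52 ± 0.29, adjusted p = 0.021), TPX2 (0.97 ± 0.21, adjusted p = 0.0397), 3xHMG-box2 (0.81 ± 0.16, adjusted p = 0.0252), CDC20.1 (1.10 ± 0.22, adjusted p = 0.0271), FZR3 (1.04 ± 0.23, adjusted p = 0.0432), MAP65-3 (1.04 ± 0.17, adjusted p = 0.0109) and PAKRP1L (1.05 ± 0.21, adjusted p = 0.0231). Leaving out 1 library moved the count to between 1 and 19. It was 1 without replicate 3 of the Col-0 center, replicate 1 or replicate 2 of the double mutant margin, or replicate 2 of the double mutant center. It was 2 without replicate 1 of the Col-0 margin or replicate 3 of the double mutant center, 3 without replicate 2 or 3 of the Col-0 margin, 11 without replicate 3 of the double mutant margin and 19 without replicate 1 of the double mutant center. MAP65-3 was called under each of 18 other settings.

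**Figure D3:**
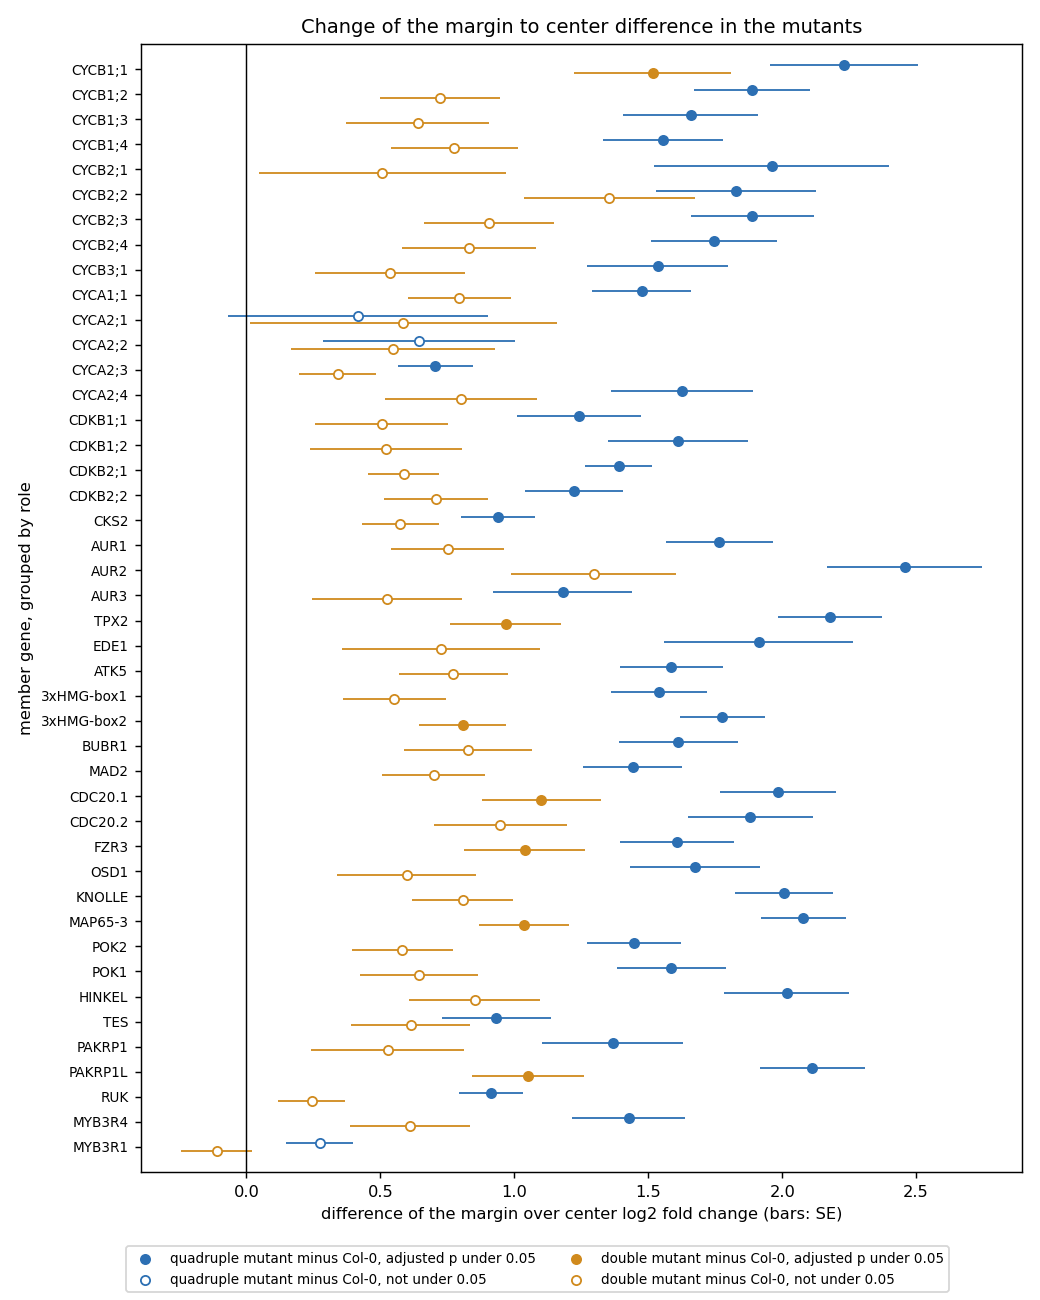
Difference of the margin over center log2 fold change between each mutant and Col-0 for the 44 genes, with bars of 1 SE and filled points for an adjusted p under 0.05. For the quadruple mutant 41 points are filled, up to 2.46 for AUR2, and for the double mutant 7 are filled.

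The promoters of the 44 genes were read for the MSA core AACGG, and for the motifs GGACCA and GTGGNCCC that TCP factors of this class are known to bind. Windows ran from 250 bases before to 50 bases after the annotated gene start in the RefSeq annotation of TAIR10.1, and both strands were searched. AACGG was present in 29 of the 44 windows, or 65.9%, against 24.7% of 27443 protein-coding promoters, and at least 2 matches in 36.4% against 4.89%. The longer CCAACGG, each match of which holds an AACGG, was in 20.5% against 1.85%. GGACCA was in 4.55% (CYCA2;2 and AUR2) against 6.99%, and GTGGNCCC in 2.27% (MYB3R4) against 0.787%. The median interaction of the quadruple mutant against Col-0 was 1.88 for the 16 genes with at least 2 AACGG matches, 1.54 for the 13 with 1 match and 1.59 for the 15 with none, given as a description with no test. In that order the interactions ran from 0.42 to 2.23, 0.94 to 2.46 and 0.27 to 1.98, which overlap. Windows printed below were picked in part by interaction, so they do not show how matches and interaction go together.

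The 5 windows printed have the most matches (CYCB1;2 with 5 and PAKRP1L with 4), belong to a cyclin and a cytokinesis gene with a large interaction and 3 matches each (CYCB1;1 and KNOLLE), or belong to the gene with the smallest interaction, which has 0 matches (MYB3R1). They lie on the minus strand at chr5:1861654-1861953 (CYCB1;2), chr4:17624259-17624558 (CYCB1;1) and chr1:2710951-2711250 (KNOLLE), and on the plus strand at chr3:8518886-8519185 (PAKRP1L) and chr4:15789883-15790182 (MYB3R1). Capitals mark AACGG or its reverse complement CCGTT, and each is written 5′ to 3′ along the gene.
CYCB1;2: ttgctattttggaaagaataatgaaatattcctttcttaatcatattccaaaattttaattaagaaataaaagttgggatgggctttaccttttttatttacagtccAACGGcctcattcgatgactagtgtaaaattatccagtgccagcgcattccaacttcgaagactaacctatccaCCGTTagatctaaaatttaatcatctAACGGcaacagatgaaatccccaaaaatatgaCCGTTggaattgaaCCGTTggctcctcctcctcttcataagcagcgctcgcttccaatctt
PAKRP1L: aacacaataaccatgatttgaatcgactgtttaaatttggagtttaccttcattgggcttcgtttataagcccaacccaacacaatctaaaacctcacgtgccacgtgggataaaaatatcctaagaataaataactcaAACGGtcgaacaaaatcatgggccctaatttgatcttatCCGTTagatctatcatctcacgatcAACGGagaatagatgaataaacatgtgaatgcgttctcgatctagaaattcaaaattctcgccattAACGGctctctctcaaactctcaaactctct
CYCB1;1: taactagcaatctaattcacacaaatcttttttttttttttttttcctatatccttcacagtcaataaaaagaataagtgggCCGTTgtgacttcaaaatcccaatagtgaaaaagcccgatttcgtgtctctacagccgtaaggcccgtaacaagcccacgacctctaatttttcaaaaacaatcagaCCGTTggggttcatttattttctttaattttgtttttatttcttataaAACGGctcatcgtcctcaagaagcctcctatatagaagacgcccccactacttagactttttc
KNOLLE: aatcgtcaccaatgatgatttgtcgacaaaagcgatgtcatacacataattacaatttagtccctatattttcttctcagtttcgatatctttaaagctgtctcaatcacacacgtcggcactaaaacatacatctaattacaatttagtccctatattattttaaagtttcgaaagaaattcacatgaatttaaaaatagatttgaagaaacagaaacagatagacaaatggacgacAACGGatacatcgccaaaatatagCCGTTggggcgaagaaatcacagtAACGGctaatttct
MYB3R1: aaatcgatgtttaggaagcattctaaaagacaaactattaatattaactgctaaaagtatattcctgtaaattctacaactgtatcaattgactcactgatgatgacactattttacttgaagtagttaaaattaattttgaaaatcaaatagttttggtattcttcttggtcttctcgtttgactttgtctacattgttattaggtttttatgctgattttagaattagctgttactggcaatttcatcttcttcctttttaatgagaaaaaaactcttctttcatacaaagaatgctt

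B-type cyclins are the partners that bring cyclin-dependent kinases to activity at the start of mitosis. Of the 9, 8 were lower in the Col-0 margin than in the Col-0 center, all 9 were higher in the margin of the quadruple mutant than at its center, and all 9 were higher there than in the Col-0 margin (median 1.52). All 9 interactions between the quadruple mutant and Col-0 passed, from 1.53 for CYCB3;1 to 2.23 for CYCB1;1. The Col-0 fold change that did not pass was that of CYCB2;1 (-0.58 ± 0.35, adjusted p = 0.329), which had 601 reads in all 18 libraries.

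CYCB1;1 (AT4G37490), widely used as a marker of cells in G2 and mitosis, had 4.99, 4.76 and 3.73 CPM in Col-0, 12.1, 10.4 and 8.54 CPM in the double mutant and 16.5, 17.7 and 18.5 CPM in the quadruple mutant in the margin. In the center it had 9.10, 7.68 and 12.01 CPM in Col-0, 10.15, 5.30 and 8.17 CPM in the double mutant and 6.98, 7.90 and 9.31 CPM in the quadruple mutant. The 3 Col-0 margin libraries were below all other libraries and the 3 quadruple mutant margin libraries above all others. The gene was lower in the Col-0 margin than in the center (-1.10 ± 0.22, adjusted p = 0.00209), and higher in the margin of the quadruple mutant than at its center (1.13 ± 0.17, adjusted p = 3.52e-05). Against the Col-0 margin it rose by 1.24 ± 0.21 in the double mutant (adjusted p = 0.00057) and by 1.97 ± 0.20 in the quadruple mutant (adjusted p = 7.58e-08).

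CYCB1;2 (AT5G06150) had 20.0, 21.9 and 20.5 CPM in Col-0, 37.3, 31.7 and 22.1 CPM in the double mutant and 52.6, 60.8 and 65.9 CPM in the quadruple mutant in the margin. Its center libraries held 29.96, 35.9 and 35.2 CPM in Col-0, 38.6, 29.0 and 24.9 CPM in the double mutant and 25.8, 24.0 and 29.0 CPM in the quadruple mutant. Replicate 3 of the double mutant margin, at 22.1 CPM, lay next to the Col-0 margin, and the other 2 lay within or above the range of the Col-0 center. Margin over center was -0.69 ± 0.16 in Col-0 (adjusted p = 0.00742), 0.03 ± 0.16 in the double mutant (adjusted p = 0.95) and 1.19 ± 0.14 in the quadruple mutant (adjusted p = 2.95e-06).

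CYCB1;4 (AT2G26760) had 8.43, 9.40 and 11.8 CPM in Col-0, 16.9, 13.4 and 12.02 CPM in the double mutant and 21.8, 24.5 and 23.9 CPM in the quadruple mutant in the margin and 16.7, 15.1 and 19.9 CPM in Col-0, 17.8, 15.1 and 11.8 CPM in the double mutant and 13.5, 12.1 and 16.5 CPM in the quadruple mutant in the center. The Col-0 margin did not overlap the Col-0 center, and the quadruple mutant margin lay above all other libraries. Its interaction between the quadruple mutant and Col-0 was 1.56 ± 0.22, adjusted p = 6.12e-05. The other B-type cyclins, CYCB1;3, CYCB2;1, CYCB2;2, CYCB2;3, CYCB2;4 and CYCB3;1, had interactions of 1.53 to 1.96.

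A-type cyclins act from S phase to mitosis. Of these, 2 of 5, CYCA1;1 and CYCA2;4, were lower in the Col-0 margin, 3 of 5 were higher in the margin of the quadruple mutant than at its center, and 3 of 5 interactions between the quadruple mutant and Col-0 passed. The mean of CYCA2;1 was lowest in the double mutant margin and highest in the Col-0 center, that of CYCA2;2 was highest in the quadruple mutant center, and that of CYCA2;3 was lowest in the quadruple mutant center. The other 41 of the 44 genes had their lowest mean in the Col-0 margin and their highest in the quadruple mutant margin.

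CYCA1;1 (AT1G44110) had 13.6, 15.5 and 14.1 CPM in Col-0, 23.2, 22.6 and 20.21 CPM in the double mutant and 36.9, 31.4 and 38.6 CPM in the quadruple mutant in the margin. Its levels in the center were 22.8, 21.4 and 27.7 CPM in Col-0, 25.2, 19.7 and 19.3 CPM in the double mutant and 21.2, 17.9 and 25.5 CPM in the quadruple mutant. The margins of the 3 genotypes did not overlap and the centers did. The margin over center difference was -0.73 ± 0.14, adjusted p = 0.00155, in Col-0 and 0.74 ± 0.12, adjusted p = 8.48e-05, in the quadruple mutant.

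CYCA2;3 (AT1G15570), whose product is known to keep cells from leaving mitotic cycles for endoreduplication, had 21.7, 25.2 and 26.4 CPM in Col-0, 28.6, 22.9 and 27.5 CPM in the double mutant and 27.2, 30.8 and 29.4 CPM in the quadruple mutant in the margin and 25.2, 27.0 and 29.5 CPM in Col-0, 24.7, 22.2 and 22.5 CPM in the double mutant and 18.3, 19.4 and 22.3 CPM in the quadruple mutant in the center. The double mutant margin overlapped the margins of both other genotypes, which did not overlap each other. The 2 lowest libraries were of the quadruple mutant center, whose replicate 3 lay within the range of the Col-0 margin. Margin and center did not differ detectably in Col-0 (-0.15 ± 0.10, adjusted p = 0.382), and the margin was higher in the quadruple mutant (0.55 ± 0.096, adjusted p = 0.000204). Its excess over the Col-0 margin, 0.25 ± 0.097, adjusted p = 0.0427, passed narrowly and was 0.18 without replicate 1 of the Col-0 margin (adjusted p = 0.186). It also did not pass without replicate 2 of the Col-0 margin (adjusted p = 0.067) or without replicate 2 or 3 of the quadruple mutant margin (adjusted p = 0.177 and 0.095).

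CYCA2;1 (AT5G25380) was the least abundant of the 44 genes, with 143 reads in all, and its levels were 0.344, 0.855 and 1.00 CPM in Col-0, 0.446, 0.415 and 0.871 CPM in the double mutant and 1.01, 0.760 and 0.631 CPM in the quadruple mutant in the margin. In the center they were 1.33, 1.73 and 1.44 CPM in Col-0, 0.818, 0.663 and 0.636 CPM in the double mutant and 1.16, 1.38 and 0.931 CPM in the quadruple mutant. The 3 margins overlapped, and the Col-0 center lay above the double mutant center. None of its comparisons passed, and the interaction between the quadruple mutant and Col-0 was 0.42 ± 0.49, adjusted p = 0.679. Against the Col-0 center, the double mutant center had a log2 fold change of -1.09 (adjusted p = 0.0887). With so few reads the SE is wide, and a difference of this size did not pass.

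CDKB kinases, found only in plants and active from G2 to mitosis, and CKS2, a small subunit that helps kinase complexes hold their substrates, were lower in the Col-0 margin in 5 of 5 cases. All 5 were higher in the quadruple mutant margin than in the Col-0 margin, and 5 of 5 interactions between them passed. Of CDKB1;1, CDKB1;2, CDKB2;1 and CDKB2;2, all 4 were higher in the margin of the quadruple mutant than at its center, by 0.63 to 0.84.

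CDKB2;1 (AT1G76540) had 17.4, 20.5 and 21.1 CPM in Col-0, 28.1, 29.3 and 29.1 CPM in the double mutant and 47.8, 47.2 and 49.3 CPM in the quadruple mutant in the margin. In the center it had 30.2, 33.3 and 33.6 CPM in Col-0, 36.8, 29.7 and 28.3 CPM in the double mutant and 32.4, 28.5 and 29.4 CPM in the quadruple mutant. The 3 margins formed separate, narrow ranges, and the 3 centers overlapped. Margin over center was -0.71 ± 0.095, adjusted p = 3.51e-05, in Col-0 and 0.68 ± 0.082, adjusted p = 3.52e-06, in the quadruple mutant, and the interaction was 1.39 ± 0.13, adjusted p = 4.83e-07.

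CKS2 (AT2G27970) had 17.4, 17.6 and 20.0 CPM in Col-0, 25.4, 23.6 and 20.9 CPM in the double mutant and 32.2, 32.0 and 34.1 CPM in the quadruple mutant in the margin and 29.4, 28.2 and 32.3 CPM in Col-0, 28.3, 26.01 and 23.8 CPM in the double mutant and 28.8, 24.3 and 31.5 CPM in the quadruple mutant in the center. Its Col-0 margin was separate from every other group, and its quadruple mutant margin overlapped the Col-0 center. The margin was lower than the center in Col-0 (-0.71 ± 0.10, adjusted p = 9.46e-05). The interaction between the quadruple mutant and Col-0 was 0.94 ± 0.14, adjusted p = 8.05e-05, and CKS1, which is no member, had 0.16 ± 0.12 (adjusted p = 0.39).

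**Figure D4:**
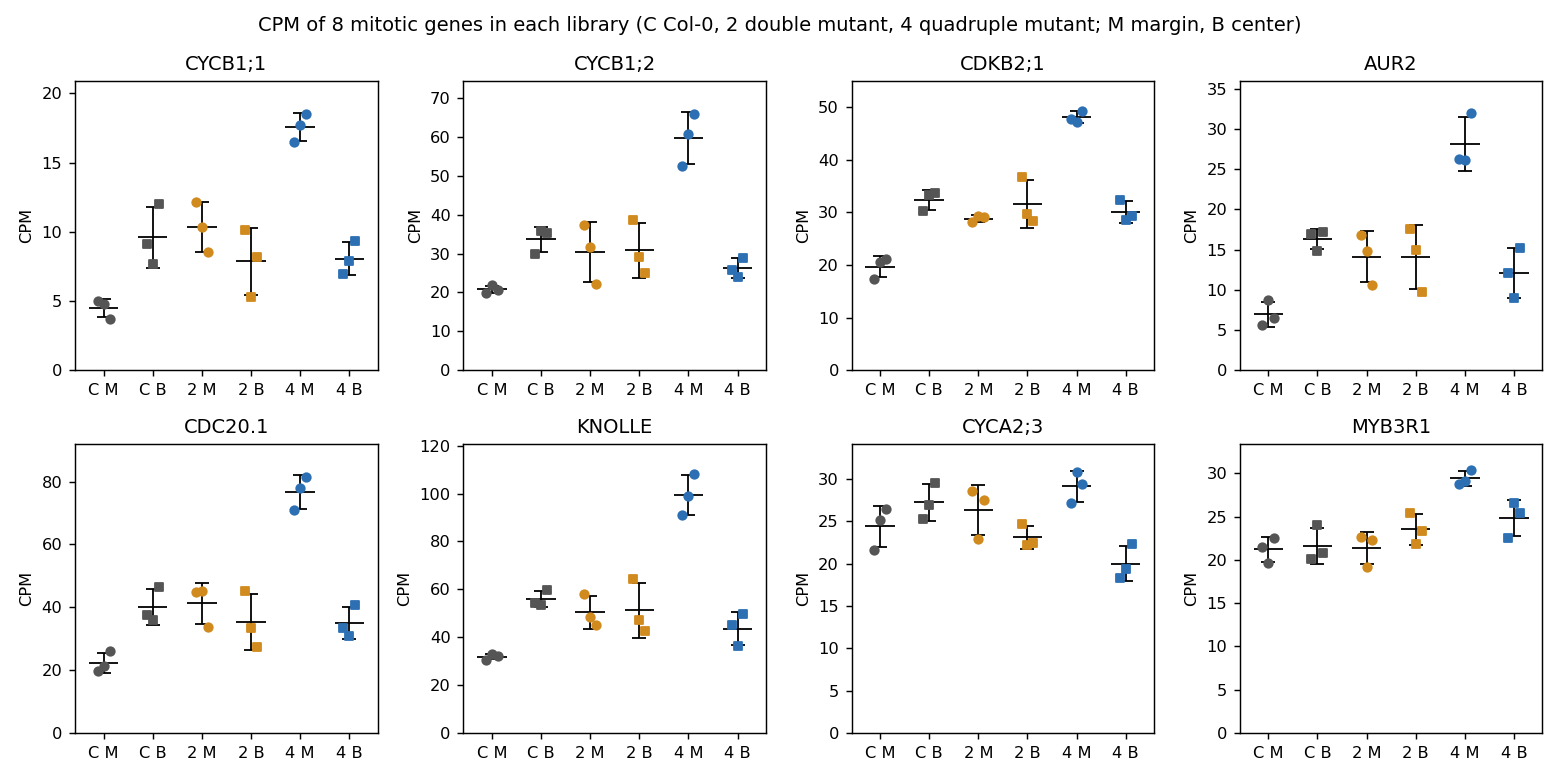
CPM of 8 of the genes in each library, by group, with the mean as a line and bars of 1 SD (n = 3 libraries). CYCB1;1, CYCB1;2, CDKB2;1, AUR2, CDC20.1 and KNOLLE are lowest in the Col-0 margin and highest in the quadruple mutant margin, while CYCA2;3 and MYB3R1 span narrower ranges relative to their means.

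Genes of the spindle, the aurora kinases and mitotic chromatin were higher in the margin of the quadruple mutant than at its center in 8 of 8 cases and lower in the Col-0 margin than in its center in 6 of 8. The other 2, AUR3 (-0.33 ± 0.21, adjusted p = 0.402) and EDE1 (-0.74 ± 0.28, adjusted p = 0.0972), did not pass, EDE1 passing with the leaf pool as a block (-0.73, adjusted p = 0.0124). AUR3 encodes the aurora kinase of centromeres and EDE1 a microtubule-binding subunit of mitotic augmin. All 8 interactions between the quadruple mutant and Col-0 passed, from 1.18 for AUR3 to 2.46 for AUR2.

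AUR2 (AT2G25880), an aurora kinase of the spindle and the cell plate, had the largest interaction of the 44 genes (2.46 ± 0.29, adjusted p = 6.89e-06). It had 5.68, 8.67 and 6.46 CPM in Col-0, 16.9, 14.8 and 10.6 CPM in the double mutant and 26.3, 26.1 and 32.0 CPM in the quadruple mutant in the margin. The center held 16.98, 14.9 and 17.2 CPM in Col-0, 17.5, 14.9 and 9.76 CPM in the double mutant and 12.1, 9.03 and 15.2 CPM in the quadruple mutant. The Col-0 margin lay below all other libraries and the quadruple mutant margin above all. The gene overlaps AT2G25890 on the opposite strand over 877 bases, and that locus had 0 reads. AUR1, its close relative, had 1.77 ± 0.20, adjusted p = 4.4e-06.

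3xHMG-box2 (AT4G23800), a protein that binds condensed mitotic chromosomes, had 47.1, 53.1 and 51.8 CPM in Col-0, 88.1, 77.8 and 69.7 CPM in the double mutant and 157, 166 and 180.2 CPM in the quadruple mutant in the margin. Its center levels were 78.8, 79.3 and 84.8 CPM in Col-0, 85.9, 67.1 and 63.7 CPM in the double mutant and 78.0, 66.3 and 90.8 CPM in the quadruple mutant. The quadruple mutant margin was far above the rest, and the Col-0 margin below them. Its log2 fold change of margin over center was -0.67 ± 0.12, adjusted p = 0.000545, in Col-0 and 1.10 ± 0.11, adjusted p = 1.93e-07, in the quadruple mutant. The related 3xHMG-box1 had an interaction of 1.54 ± 0.18, adjusted p = 5.43e-06; a gene that overlaps it over 517 bases moved the same way (1.83, adjusted p = 0.0034), and so did one that overlaps AUR3 over 126 bases (2.13, adjusted p = 7.91e-04).

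ATK5 (AT4G05190), a kinesin that walks to microtubule minus ends and shapes the spindle, had 13.9, 15.1 and 15.2 CPM in Col-0, 25.99, 23.4 and 18.3 CPM in the double mutant and 42.0, 42.6 and 44.6 CPM in the quadruple mutant in the margin and 27.8, 24.1 and 26.5 CPM in Col-0, 29.1, 19.1 and 23.2 CPM in the double mutant and 26.7, 20.8 and 29.5 CPM in the quadruple mutant in the center. Again the Col-0 margin was below and the quadruple mutant margin above all other libraries. Its interaction was 1.59 ± 0.19, adjusted p = 9.37e-06. TPX2, which nucleates spindle microtubules and binds aurora kinase, had 2.18 ± 0.19, adjusted p = 4.22e-07, and EDE1 had 1.91 ± 0.35, adjusted p = 0.00077.

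Checkpoint genes and regulators of APC/C were lower in the Col-0 margin in 6 of 6 cases, higher in the margin of the quadruple mutant than at its center in 6 of 6, and the interaction passed for 6 of 6. BUBR1 and MAD2, which hold back anaphase until chromosomes are attached, had interactions of 1.61 ± 0.22 and 1.44 ± 0.18 (adjusted p = 3.93e-05 and 1.63e-05). OSD1, an APC/C inhibitor best known from meiosis, had 1.68 ± 0.24, adjusted p = 6.82e-05.

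CDC20.1 (AT4G33270), the main activator of APC/C in mitosis, had 19.8, 21.3 and 25.98 CPM in Col-0, 44.8, 45.04 and 33.8 CPM in the double mutant and 70.8, 78.0 and 81.3 CPM in the quadruple mutant in the margin. In the center it had 37.6, 36.0 and 46.5 CPM in Col-0, 45.005, 33.3 and 27.5 CPM in the double mutant and 33.5, 30.7 and 40.6 CPM in the quadruple mutant. The Col-0 margin was below every other library, although its replicate 3, at 25.98 CPM, came close to replicate 3 of the double mutant center. The interaction between the quadruple mutant and Col-0 was 1.98 ± 0.22, adjusted p = 2.67e-06. CDC20.2 had 1.88 ± 0.23, adjusted p = 1.16e-05; the transcripts of the pair share an exact stretch of 314 bases and 31.4% of all 50-base stretches, so the split of reads between them is uncertain.

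FZR3 (AT5G13840), an activator of APC/C with a peak of expression in mitosis, had 11.4, 13.9 and 14.6 CPM in Col-0, 28.8, 25.0 and 22.3 CPM in the double mutant and 44.2, 48.2 and 49.3 CPM in the quadruple mutant in the margin and 19.8, 20.9 and 27.1 CPM in Col-0, 27.8, 17.4 and 18.8 CPM in the double mutant and 26.03, 23.1 and 30.05 CPM in the quadruple mutant in the center. The margin order of Col-0, double mutant and quadruple mutant had no overlap. The fold change of margin over center was -0.75 ± 0.17, adjusted p = 0.00476, in Col-0 and 0.85 ± 0.13, adjusted p = 5.96e-05, in the quadruple mutant, and the interaction was 1.61 ± 0.21, adjusted p = 2.56e-05.

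Phragmoplast and cytokinesis genes were lower in the Col-0 margin in 7 of 9 cases, higher in the margin of the quadruple mutant than at its center in 9 of 9, and all 9 interactions passed. TES (-0.36 ± 0.16, adjusted p = 0.17) and PAKRP1 (-0.48 ± 0.21, adjusted p = 0.144) were the 2 that did not pass in Col-0, PAKRP1 passing with the leaf pool as a block (-0.49, adjusted p = 0.0385). The smallest adjusted p of the 44 genes in this interaction was that of MAP65-3, a protein that bundles microtubules at the phragmoplast midline (2.08 ± 0.16, adjusted p = 1.3e-07, named after its values were seen). Relative to the Col-0 center, the median level of the 9 genes was 0.594 in the Col-0 margin, 0.993 in the double mutant margin and 1.99 in the quadruple mutant margin.

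KNOLLE (AT1G08560), the syntaxin that fuses vesicles into the cell plate, had 30.6, 32.9 and 32.0 CPM in Col-0, 58.0, 48.3 and 44.9 CPM in the double mutant and 91.1, 99.0 and 108 CPM in the quadruple mutant in the margin. Its center libraries had 54.5, 53.5 and 59.6 CPM in Col-0, 64.3, 47.0 and 42.4 CPM in the double mutant and 45.1, 36.1 and 49.6 CPM in the quadruple mutant. The Col-0 margin lay below and the quadruple mutant margin above all other libraries, and all 3 quadruple mutant center libraries lay below the Col-0 center. Margin over center was -0.81 ± 0.14, adjusted p = 0.000444, in Col-0 and 1.20 ± 0.12, adjusted p = 4.73e-07, in the quadruple mutant, with an interaction of 2.01 ± 0.18, adjusted p = 5.51e-07. In the center, the decrease in the quadruple mutant (-0.37 ± 0.13, adjusted p = 0.035) did not pass without replicate 1, 2 or 3 of the Col-0 center (adjusted p = 0.0653, 0.0515 and 0.117) or without replicate 1 or 2 of the quadruple mutant center (adjusted p = 0.0552 and 0.206). A gene on the opposite strand that overlaps KNOLLE over 464 bases had an interaction of -0.28 (adjusted p = 0.0288).

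POK2 (AT3G19050), a kinesin that marks the site where the cell plate will join the wall, had 11.9, 13.7 and 12.9 CPM in Col-0, 23.7, 21.4 and 17.8 CPM in the double mutant and 47.5, 44.02 and 50.9 CPM in the quadruple mutant in the margin. Center levels were 17.6, 20.19 and 23.2 CPM in Col-0, 26.8, 19.1 and 21.5 CPM in the double mutant and 27.0, 25.2 and 30.6 CPM in the quadruple mutant. All 3 quadruple mutant center libraries lay above all 3 Col-0 center libraries (0.43 ± 0.12, adjusted p = 0.00934), which was 0.34 without replicate 1 of the Col-0 center (adjusted p = 0.066). The margin was still higher than the center in the quadruple mutant (0.79 ± 0.11, adjusted p = 1.3e-05), and the interaction was 1.45 ± 0.18, adjusted p = 9.44e-06. POK1, its partner, had 0.21 ± 0.14, adjusted p = 0.26, in the center and an interaction of 1.59 ± 0.20, adjusted p = 1.72e-05.

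TES (AT3G43210), a kinesin of the NACK family needed for cytokinesis after male meiosis, had 6.36, 5.496 and 5.89 CPM in Col-0, 8.57, 8.30 and 9.23 CPM in the double mutant and 14.9, 16.3 and 13.04 CPM in the quadruple mutant in the margin and 6.43, 7.80 and 8.41 CPM in Col-0, 8.51, 7.62 and 6.04 CPM in the double mutant and 8.89, 9.85 and 11.3 CPM in the quadruple mutant in the center. The quadruple mutant center was above the Col-0 center without overlap (0.40 ± 0.14, adjusted p = 0.0364), a call lost without replicate 1 or 2 of the Col-0 center (adjusted p = 0.174 and 0.0631) or without replicate 2 or 3 of the quadruple mutant center (adjusted p = 0.0742 and 0.117). Its interaction was 0.93 ± 0.20, adjusted p = 0.00314. HINKEL, the other kinesin of that family and needed for cytokinesis in body cells, had 2.02 ± 0.23, adjusted p = 5.45e-06.

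RUK (AT5G18700), a kinase-like protein of the expanding cell plate, had 26.7, 27.4 and 25.0 CPM in Col-0, 27.1, 29.2 and 24.9 CPM in the double mutant and 44.4, 48.7 and 43.5 CPM in the quadruple mutant in the margin. In the center it had 36.9, 32.3 and 37.2 CPM in Col-0, 32.6, 32.1 and 28.7 CPM in the double mutant and 31.2, 30.6 and 36.6 CPM in the quadruple mutant. The margins of Col-0 and the double mutant overlapped, and the gene did not differ detectably between them (0.05 ± 0.091, adjusted p = 0.799), whereas the quadruple mutant margin was higher than that of Col-0 (0.79 ± 0.085, adjusted p = 2.06e-07). The interaction was 0.91 ± 0.12, adjusted p = 2.32e-05. PAKRP1L and PAKRP1, kinesins of the phragmoplast midline, had 2.11 ± 0.20, adjusted p = 5.51e-07, and 1.37 ± 0.26, adjusted p = 0.00111.

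MYB3R4 (AT5G11510), an activator of genes with MSA elements, had 11.2, 9.65 and 9.90 CPM in Col-0, 16.6, 14.8 and 11.8 CPM in the double mutant and 26.3, 26.2 and 29.8 CPM in the quadruple mutant in the margin. Its center levels were 14.8, 13.5 and 21.5 CPM in Col-0, 18.5, 15.6 and 13.8 CPM in the double mutant and 15.7, 16.8 and 17.4 CPM in the quadruple mutant. Between margin and center it differed by -0.71 ± 0.16, adjusted p = 0.00674, in Col-0 and 0.72 ± 0.13, adjusted p = 0.000359, in the quadruple mutant, with an interaction of 1.43 ± 0.21, adjusted p = 8.23e-05. Replicate 3 of the Col-0 center was the highest of its group, and without it the Col-0 fold change was -0.47 (adjusted p = 0.0557).

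MYB3R1 (AT4G32730), which can activate or repress such genes, had 21.5, 19.7 and 22.5 CPM in Col-0, 22.6, 19.2 and 22.3 CPM in the double mutant and 28.8, 29.1 and 30.4 CPM in the quadruple mutant in the margin and 20.14, 24.0 and 20.8 CPM in Col-0, 25.4, 21.9 and 23.3 CPM in the double mutant and 22.5, 26.5 and 25.4 CPM in the quadruple mutant in the center. The 4 groups of Col-0 and the double mutant overlapped, and only the quadruple mutant margin stood above all other libraries. Margin and center did not differ detectably in Col-0 (-0.03 ± 0.095, adjusted p = 0.888). The quadruple mutant margin was higher than the Col-0 margin (0.47 ± 0.089, adjusted p = 0.000192). Against its own center it passed narrowly (0.24 ± 0.083, adjusted p = 0.0381), and not without replicate 1, 2 or 3 of that margin (adjusted p = 0.0704, 0.0903 and 0.13) or replicate 1 or 3 of that center (adjusted p = 0.174 and 0.072). The interaction, 0.27 ± 0.13, adjusted p = 0.149, was the smallest of the 44 genes and did not pass.

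Genes outside the 44 that act in the same processes moved in part. In the interaction of the quadruple mutant against Col-0, 17.2% of all loci passed, 7.96% with a positive value. The interaction between the quadruple mutant and Col-0 passed, always positive, for 8 of 10 genes tested of cohesion and condensin (median 1.01), 8 of 15 of microtubules and augmin (median 0.39), 7 of 15 of other cytokinesis genes (median 0.54) and 4 of 8 of the kinetochore (median 0.53). It passed for 1 of 11 core subunits of APC/C (median 0.29), near the positive share over all loci. It passed for 0 of 3 other APC/C regulators, 0 of 3 genes of CDKA;1 and its partners, and 1 of 2 other MYB3R genes tested. Examples are EB1C, a microtubule plus-end protein (1.80 ± 0.18, adjusted p = 1.51e-06), PANS1, which protects sister chromatid cohesion (1.77 ± 0.22, adjusted p = 1.45e-05), the kinesin ATK1 (1.46 ± 0.15, adjusted p = 2.03e-06) and the cytokinesis kinases TIO (1.43 ± 0.17, adjusted p = 7.28e-06) and ANP3 (1.41 ± 0.17, adjusted p = 9.44e-06).

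Genes of DNA replication were followed as well. Of 12 genes of S phase, 3 had a positive interaction that passed and 0 a negative one, with a median of 0.28, against 1.61 for the 44 genes. The 3 were CDC45, a part of the replicative helicase (0.66 ± 0.20, adjusted p = 0.0267), the sliding clamp gene PCNA2 (0.56 ± 0.12, adjusted p = 0.00221) and the licensing factor gene CDT1A (0.46 ± 0.15, adjusted p = 0.0426). Of all loci, 7.96% passed with a positive value in the interaction of the quadruple mutant against Col-0. In Col-0, 1 of 12 was lower in the margin and 0 were higher, in the double mutant 4 were higher and 0 lower, and in the quadruple mutant 7 were higher and 0 lower. Over all 17763 loci tested, 941 were higher and 1089 lower in the Col-0 margin. In the double mutant 439 were higher and 895 lower, and in the quadruple mutant 2151 were higher and 2401 lower. The summed level of the 12 S phase genes was 352 CPM in the Col-0 margin, 391 CPM in the double mutant margin and 403 CPM in the quadruple mutant margin, and 339 to 362 CPM in the 3 centers.

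Marker genes of cell types moved between the groups as well. The sum of 8 stomatal lineage markers, genes of early and late stages of the epidermal lineage that forms stomata, was 98.8 to 107 CPM in the Col-0 margin, 120 to 131 CPM in the Col-0 center, 142 to 150 CPM in the double mutant margin, 115 to 127 CPM in the double mutant center, 181 to 199 CPM in the quadruple mutant margin and 121 to 127 CPM in the quadruple mutant center. Of the 8, 5 were lower in the Col-0 margin, 5 were higher in the margin of the quadruple mutant than at its center, and 5 interactions passed. Over all loci, 6.13% were lower in the Col-0 margin and 12.1% higher in the quadruple mutant margin than at its center. In the interaction of the quadruple mutant against Col-0, 17.2% of all loci passed. All 8 markers were detected. As for the 44 mitotic genes, the lowest group was the Col-0 margin and the highest the quadruple mutant margin, and the part of this lineage in their result was not tested.

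The sum of 8 markers of mature mesophyll, genes of photosynthesis, ran the other way, from 99725 to 105724 CPM in the Col-0 margin down to 52111 to 59819 CPM in the quadruple mutant margin, with 58408 to 72719.6 CPM in the quadruple mutant center. In the interaction 6 of the 8 were lower and 0 higher. Of 4 phloem markers 4 were lower and of 4 xylem markers 4 were lower in the same interaction. Over all 17763 loci tested, 1633 were lower and 1414 higher in the interaction of the quadruple mutant against Col-0. Markers of the shoot apical meristem were at or near 0: WUS had 0 reads in all libraries, STM 1, CLV3 2 and KNAT1 10, and their sum was at most 0.421 CPM in any library. The part of mesophyll and vascular tissue in the result was not tested.

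**Figure D5:**
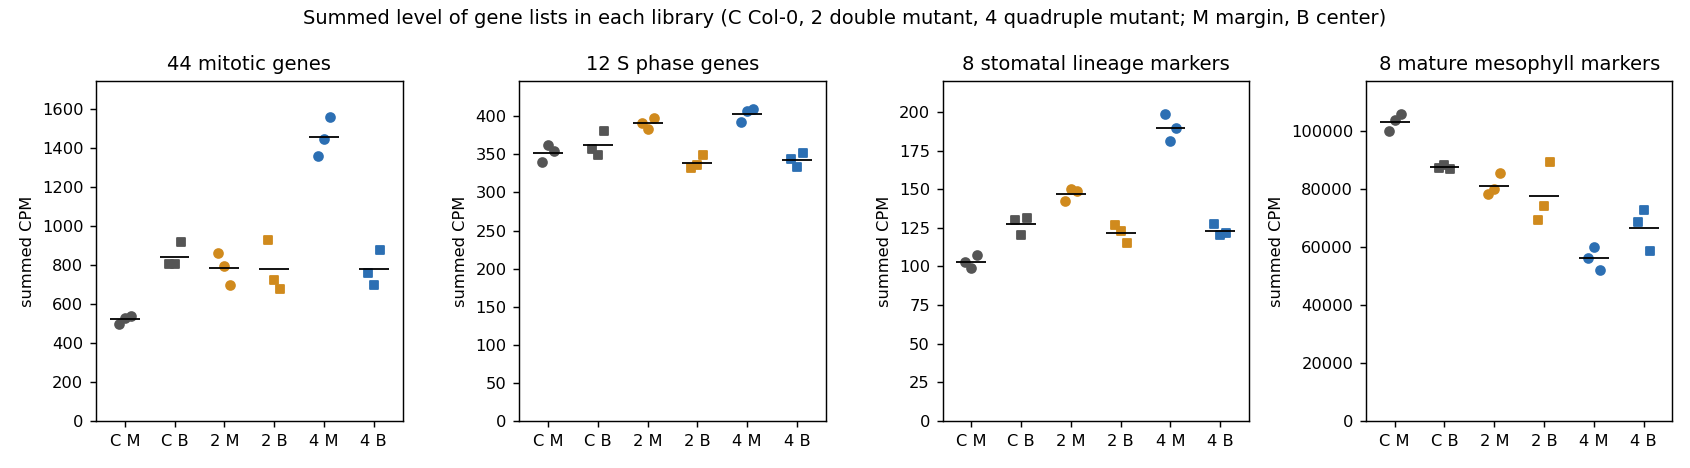
Summed CPM of 4 gene lists in each library, by group, with the group mean as a line. The 44 mitotic genes and the 8 stomatal lineage markers are lowest in the Col-0 margin and highest in the quadruple mutant margin, the 12 S phase genes span a narrow range from 332 to 409 CPM, and the 8 mesophyll markers are lowest in the quadruple mutant margin.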

How the data were processed

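RNA from 18 libraries (TruSeq RNA kit, per the labels' protocols) was measured as read counts per locus. The counts were deposited by the authors as raw whole numbers in a single table. The submitters' processing notes name HTSeq 0.7.2, TopHat2 2.0.13, the build TAIR10 and edgeR 3.8.6 (options and strand setting: not given in the sources used here). Table rows for reads outside genes, 5 in all, were left out (reads in no feature 0.497% to 1.15%, ambiguous 1.38% to 1.57%, aligned to several places 3.71% to 16.0%).

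Of 33602 loci, 17763 passed filterByExpr. Counts were scaled by TMM and fitted with 1 mean per group over all 18 libraries by the quasi-likelihood test of edgeR 4.0.16 (R 4.3.3). P-values were adjusted over all tested loci by the Benjamini-Hochberg method, at a threshold of 0.05, in 12 comparisons. SE is the log2 fold change divided by the root of F. DESeq2 1.42.0 was an alternative, together with other size factors, no filter on low counts, blocks and leaving out libraries.

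Libraries of the same number from the margin and center of a genotype deviated together in 9 of 9 pairs (r = 0.196 to 0.384, against -0.238 to 0.0383 in 18 other pairs), so the numbers were taken to mark a leaf pool. The labels do not state this, and the samples of a pool are taken from the same plants only on that evidence. Within groups, no libraries were duplicates of each other, and pairs across groups were not checked for this.

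The members and lists were chosen with earlier results of these data known. Genes given with values in every library are the 2 of highest mean CPM in each role, the 2 with the largest and the 2 with the smallest interaction of the quadruple mutant against Col-0, and members called higher in the quadruple mutant center. Other genes were named after their values were seen. Promoters are from RefSeq TAIR10.1, and the heat map and pool comparisons of genes use a pseudocount of 0.5 CPM.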

Additional observations from a re-analysis of the deposited data

Results flagged for a closer look

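The difference between margin and center was itself different between genotypes by the interaction test of edgeR with Benjamini-Hochberg adjustment. It passed for 41 of the 44 genes between the quadruple mutant and Col-0, for 26 between the quadruple and the double mutant, and for 7 between the double mutant and Col-0. With the leaf pool as a block these counts were 41, 39 and 28, where 4996, 2008 and 1347 of all loci passed, against 3047, 515 and 78 without it. Leaving out 1 library gave 41, 14 to 31 and 1 to 19 of the 44 genes.

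Among the genes given library by library, the log2 difference between the quadruple mutant and Col-0 was 2.46 for AUR2, 2.23 for CYCB1;1, 2.01 for KNOLLE, 1.98 for CDC20.1, 1.89 for CYCB1;2 and 1.78 for 3xHMG-box2. It was 1.61 for FZR3, 1.59 for ATK5, 1.56 for CYCB1;4, 1.47 for CYCA1;1, 1.45 for POK2, 1.43 for MYB3R4 and 1.39 for CDKB2;1. The smallest that passed were 0.94 for CKS2, 0.93 for TES, 0.91 for RUK and 0.71 for CYCA2;3.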

How the results depend on the processing

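The interaction between the double mutant and Col-0 depended most on the processing, with 7 genes called as reported, 16 with no filter on low counts, 12 with DESeq2, 3 with only the libraries compared and 28 with the leaf pool as a replicate block. Over all loci the same settings called 78, 175, 131, 39 and 1347. The block also called 1 gene between margin and center of the double mutant and 39 in the interaction between the quadruple and the double mutant. It called 37 in Col-0, 42 in the quadruple mutant and 41 in the interaction of those 2, and lost none of the calls reported. Over all loci, the block called 3836 between margin and center in Col-0, 3041 in the double mutant and 6441 in the quadruple mutant. Without it these were 2030, 1334 and 4552. It called 4996 loci in the interaction of the quadruple mutant against Col-0 and 2008 in that against the double mutant. Unblocked, these were 3047 and 515. Between the centers of the quadruple mutant and Col-0, DESeq2 called 3, and 8 passed without replicate 1 of the Col-0 margin and replicate 3 of the double mutant margin, a setting chosen after seeing the data, as was scaling by library size only. The latter called 1 gene between the centers of the quadruple and the double mutant. With it the median of all loci between the margins of the quadruple mutant and Col-0 was 0.33, against 0.03 with TMM, and 9052 loci were higher and 1898 lower, against 3925 and 3871. No called member changed direction in any setting checked gene by gene, a check that left out the fits with only the libraries compared.

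Leaving out 1 library gave 26 to 31 genes in Col-0, 0 to 1 in the double mutant and 39 to 41 in the quadruple mutant between margin and center. In the margin it gave 18 to 29 (double mutant against Col-0), 41 to 43 (quadruple mutant against Col-0) and 39 to 41 (quadruple against double), and in the center 0, 2 to 6 and 0 to 2. The interactions gave 1 to 19 (double mutant against Col-0), 41 (quadruple mutant against Col-0) and 14 to 31 (quadruple against double). Across genotypes, libraries shared only a replicate number (r = -0.233 to 0.173 in 18 pairs), and that number as a replicate block called 30, 42 and 41 genes in the margins and 0, 6 and 0 in the centers. Of 3301 values of single named genes under alternatives, 3117 kept their side of the threshold, 125 lost the call, 59 gained it and 0 reversed. Direction was compared only for values called in the reported fit or in the alternative. Values called in neither could change sign and were counted among the 3117.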
